A study of Mus musculus with 20 samples.

Results

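The cytosolic ribosomal proteins were followed here in C2C12 myotubes exposed to hydrogen peroxide. Members were the probe sets of a mouse Affymetrix expression array whose only gene symbol in the platform annotation was Rpl or Rps followed by a number, or Rplp0, Rplp1, Rplp2 or Rpsa, without the Rps6k kinases and without 1 further gene. The rule used names and no measured values. It found 95 probe sets of 48 genes among 22626 probe sets that are not array controls. Of these 95, 80 probe sets of 44 genes passed the filter on dim signals and were tested among 14379 probe sets, and 15 did not pass. They comprised 37 probe sets of large subunit proteins, 35 of small subunit proteins, 2 of the stalk and 6 of paralogues. Rplp1 was not among the probe sets with a single symbol. A further 102 probe sets carry a ribosomal protein symbol together with other symbols, and 28 genes are represented only there, so those were not analysed here.

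C2C12 cells are a standard mouse myoblast line, and they had been differentiated into myotubes for 96 h. The myotubes then received 0, 1, 10, 100 or 1000 µM H2O2 for 2 h in medium with 0.5% horse serum, which the untreated cells shared. Each dose had 4 arrays, 20 in all, hybridised with total RNA. The labels do not say whether replicates were separate cultures, so the p-values measure the spread between these arrays, which may be technical. One array labelled 10 µM carries no replicate number and is called replicate 1 here, and one 1 µM label, with a spelling error in its unit, was taken as µM.

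A ribosome consists of a large and a small subunit, each built from ribosomal RNA and a set of proteins present mostly in single copies. Ribosomal protein genes are among the most strongly transcribed genes of a cell. Their messages belong to the terminal oligopyrimidine (TOP) class, which begins with an uninterrupted run of C and T (U in the RNA), and whose translation is controlled through the kinase mTOR and the RNA-binding protein Larp1. Regulation of these messages is therefore best known at translation, whereas the arrays measured RNA abundance.

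The start regions of some members are shown because the pyrimidine run is a property that the choice of members did not use. RefSeq promoter windows (build GRCm38.p6) were found for 41 of the 48 genes, 48 windows in all. Each stretch below runs from 30 bases before to 20 bases from the annotated start onward, on the gene's strand, and capitals mark the longest run of at least 6 C or T within it. Rpl35, Rps9 and Rplp2 carry such a run across the annotated start, and in Rpl12 and Rpl22l1 it begins just after it. Rps3, Rpsa and Rps27l have none at that position in this window. Genes with a probe set called at 1000 µM as deposited stand on both sides. Rpl35 and Rps9 have the run, the latter called for a fall at a dim probe set, and Rps3, Rpsa, Rps27l and Rps28 do not. The stretches of Rps28, Rplp0, Rpl41 and Rpl7l1 were also extracted, hold no run across the annotated start and are not shown. The coordinates are chr2:39005112-39005161 (minus strand) for Rpl35, chr7:3704011-3704060 (plus) for Rps9, chr7:141447621-141447670 (plus) for Rplp2 and chr2:32961682-32961731 (plus) for Rpl12. They are chr3:28805478-28805527 (plus) for Rpl22l1, chr7:99483690-99483739 (minus) for Rps3 and chr9:120127736-120127785 (plus) for Rpsa. Rps27l has 2 annotated starts, and the one shown is the more upstream, at chr9:66946056-66946105 (plus).
Rpl35: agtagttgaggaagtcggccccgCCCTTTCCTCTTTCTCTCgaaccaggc
Rps9: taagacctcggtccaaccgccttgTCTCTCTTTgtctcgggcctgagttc
Rplp2: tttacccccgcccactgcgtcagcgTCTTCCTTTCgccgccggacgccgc
Rpl12: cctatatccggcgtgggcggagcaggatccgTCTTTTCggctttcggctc
Rpl22l1: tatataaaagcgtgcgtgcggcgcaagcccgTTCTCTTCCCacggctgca
Rps3: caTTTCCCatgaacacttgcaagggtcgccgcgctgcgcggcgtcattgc
Rpsa: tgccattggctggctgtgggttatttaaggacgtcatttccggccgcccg
Rps27l: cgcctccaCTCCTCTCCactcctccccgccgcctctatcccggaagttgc

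A run of at least 6 C or T that holds the annotated start was present in 11 of the 48 member windows (22.9%), against 7.25% of all 32851 promoter windows and 2 of 75 windows of mitochondrial ribosomal protein genes (2.67%). The 11 genes were Rpl7a, Rpl14, Rpl27a, Rpl35, Rpl38, Rplp2, Rps6, Rps9, Rps10, Rps18 and Rps27. The letters TCTTT lay within 20 bases of the start on the gene strand in 8 member windows (16.7%), against 4.84% of all windows and no mitochondrial ribosomal protein window. These 5 letters can overlap the run. CTTCCG, searched on both strands of the whole window and the core of many ETS family sites, was found in 30 member windows (62.5%), against 16.9% of all windows and 53.3% of the mitochondrial ribosomal protein windows. ATGGCG, searched likewise, was found in 16 member windows (33.3%), against 8.93% of all windows and 25.3% of the mitochondrial ribosomal protein windows. CACGTG, the E-box bound by Myc among other factors, was found in 5 (10.4%), against 7.15% and 9.33%. Among windows of protein-coding genes the shares were 6.2% for the run, 3.94% for TCTTT, 21.1% for CTTCCG, 10.9% for ATGGCG and 7.84% for CACGTG. A match describes the letters and does not show a bound site, and windows of several starts of one gene can overlap. Whether an annotated start is the one used in these myotubes was not tested. A missing run there does not show that the message lacks one.

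The myotube labels were checked against marker genes. All 14 myotube markers lay at or above the filter level on all 20 arrays, whereas the measured leukocyte markers (Ptprc, Cd68, Cd3e) and adipocyte markers (Adipoq, Fabp4, Cidec) lay below it on every array. Of 5 measured markers of undifferentiated or cycling cells, 4 lay at or above it on all arrays and Pax7 on none, with a summed signal of 4635 to 5562 untreated and 4890 to 5236 at 1000 µM. Of 4 fibroblast markers, 1 lay at or above it on all arrays and 2 (Lum, Thy1) on none, with sums of 606.7 to 1128 and 627.4 to 1150. Of 4 endothelial or epithelial markers, none reached it on all arrays and 3 lay below it on every array. The summed signal of the myotube markers ranged from 84340 to 106500 in untreated cells and from 111400 to 118500 at 1000 µM. It was 105800 to 115600 at 1 µM, 99120 to 135400 at 10 µM and 99670 to 118800 at 100 µM. At 1000 µM the sum thus moved in the direction of the ribosomal protein signals as deposited, given below. Its part in them was not tested. In RNA from whole cultures, fewer cells of a type and less RNA per cell cannot be told apart. Correlations of log2 signal between arrays ranged from 0.9335 to 0.9902, and no 2 arrays held identical values.

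The main results are given under a pair of scalings. In the deposited values each array had been scaled by the authors to a trimmed mean of 500.1 to 500.2, and in the second scaling all arrays were forced to one distribution by quantile normalization. The members' values differed between them, and the second scaling can remove a change that many of the brightest probe sets share. At 1000 µM the median log2 difference from untreated cells over the 80 ribosomal protein probe sets was 0.27 as deposited and 0.03 after quantile normalization, whereas over all 14379 tested probe sets it was -0.07 and 0.01. As deposited, 69 of the 80 lay above 0, and after quantile normalization 51 did. Of the 80, 45 lay above 0 under both scalings, 5 below 0 under both, 24 above 0 only as deposited and 6 above 0 only after quantile normalization. The median standard error of a single difference was 0.122 as deposited and 0.0844 after quantile normalization, so a shift of the deposited size spans only a few standard errors for any single probe set.

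**Figure D1:**
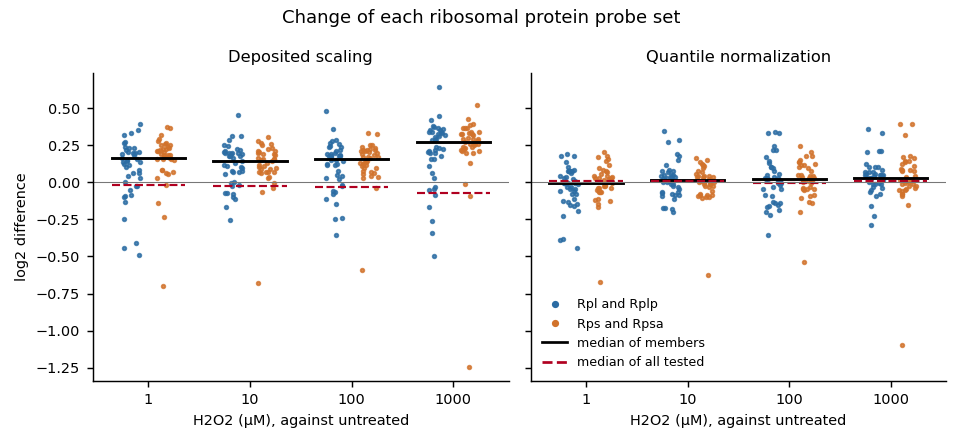
Log2 differences from untreated myotubes (vertical axis) of the 80 tested ribosomal protein probe sets at 1, 10, 100 and 1000 µM H2O2 (horizontal axis), as deposited (left) and after quantile normalization (right). Points are probe sets, black lines the members' medians (0.273 at 1000 µM as deposited and 0.0304 after quantile normalization) and dashed lines the medians of all tested probe sets.

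The lower doses gave medians of similar size to one another. As deposited, the members' median was 0.16 at 1 µM, 0.14 at 10 µM and 0.16 at 100 µM, with 64, 66 and 68 of the 80 probe sets above 0. The corresponding medians over all tested probe sets were -0.02, -0.02 and -0.03. After quantile normalization the members' medians were -0.0047, 0.01 and 0.02. All comparisons with untreated cells share the same 4 untreated arrays. The untreated replicate 1 array weighed on these medians, since without it the 100 µM median was 0.0933. Without the 10 µM replicate 4 array the 10 µM median was 0.0498. No ribosomal protein probe set was called by limma at an adjusted p under 0.05 at 1 µM (0% of all tested probe sets called), at 10 µM (0.00695%) or at 100 µM (1.22%), and none after quantile normalization (0%, 0.00695% and 1.4%). As deposited, unadjusted p-values under 0.05 numbered 14, 8 and 7 of 80 (17.5%, 10.0% and 8.75%), against 6.68%, 4.99% and 11.2% of all tested probe sets. After quantile normalization they numbered 4, 0 and 5, against 5.79%, 3.93% and 10.4%.

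The members' common level was also followed array by array. Each member was expressed relative to its own mean over the 20 arrays, and the median of these deviations was taken per array. As deposited it was -0.306, -0.047, -0.015 and -0.187 in the untreated replicates 1 to 4. It was 0.048, 0.099, -0.024 and -0.008 at 1 µM, and -0.11, -0.101, -0.05 and 0.295 at 10 µM. It was -0.096, 0.035, 0.131 and -0.042 at 100 µM, and 0.229, 0.056, 0.151 and 0.038 at 1000 µM. All 4 arrays at 1000 µM lay above all 4 untreated arrays, but untreated replicate 1 was the lowest and 10 µM replicate 4 the highest of the 20. After quantile normalization every array lay between -0.052 and 0.079, and the groups overlapped. In replicates 2 to 4 alone the members' median difference at 1000 µM was 0.18 as deposited.

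**Figure D2:**
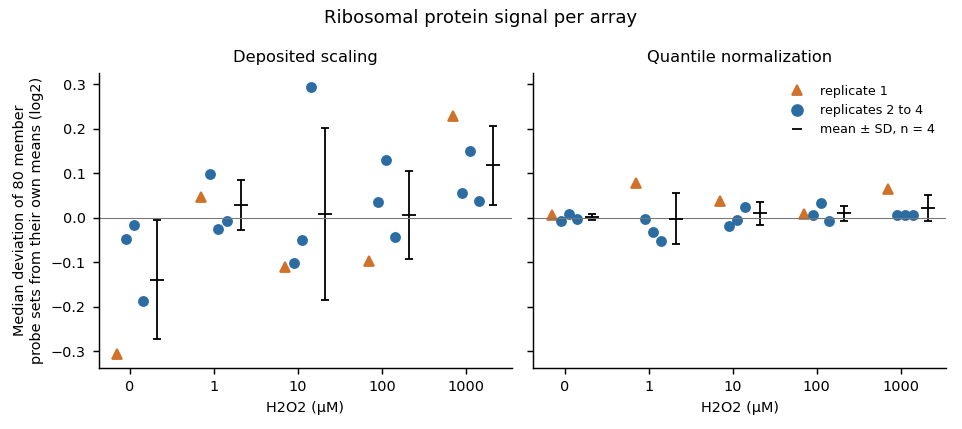
Median deviation of the 80 ribosomal protein probe sets from their own means over 20 arrays (log2, vertical axis), per array, by H2O2 dose in µM (horizontal axis), as deposited (left) and after quantile normalization (right). Triangles are replicate 1 (at 10 µM the array without a number), circles replicates 2 to 4 and bars the mean ± SD of 4 arrays. As deposited the arrays ran from -0.306 to 0.295, and after quantile normalization from -0.052 to 0.079.

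The spread of bright against middling signals changed along with the members. The 99th percentile of signal over the median was taken over tested probe sets that are not members. Some of these carry a ribosomal protein symbol beside other symbols, so the ratio is not free of ribosomal protein signal. On the log2 scale it was 3.76 to 4.14 in the untreated arrays and 4.32 to 4.42 at 1000 µM. Its lowest value, 3.76, was in untreated replicate 1 and its highest, 4.51, in 10 µM replicate 4, the same arrays that were lowest and highest for the ribosomal proteins. The quantile normalization removes this difference by construction. It can also remove a rise shared by the ribosomal proteins, as far as they make up the brightest signals. How much it removes was not tested.

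Most ribosomal protein probe sets were bright, and bright probe sets of all kinds lay higher at 1000 µM as deposited. Of the 80 members, 64 belonged to the brightest 10 percent of tested probe sets by mean log2 signal. All 64 had a difference above 0 at 1000 µM, from 0.11 to 0.64 with a median of 0.30. The 1297 other probe sets of that class had a median of 0.16, and 1106 of them lay above 0. In the brightest 1 percent, a class chosen after seeing the data, the 36 members had a median of 0.31 and the 66 other probe sets one of 0.29. In the 4 dimmest of 10 equal signal classes the medians of other probe sets lay between -0.18 and -0.17. After quantile normalization the medians in the brightest 10 percent were 0.03 for members and 0.01 for the others. That scaling fixes the brightest signals of every array, and in the brightest 1 percent 36 members stand beside 66 others. In the brightest 10 percent they are 64 beside 1297. The part of a shared rise of the members that this scaling removes was not measured, and whether there was one was not tested.

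The 16 tested members outside the brightest 10 percent were spread to both sides of 0. Their median at 1000 µM was -0.05, with 5 above and 11 below 0, and after quantile normalization it was 0.04, with 10 above and 6 below 0. They included 2 of the 3 tested Rps9 probe sets, the only tested probe sets of Rpl12, Rpl14, Rpl27a, Rpl39, Rps6, Rps25 and Rps27, and both of Rpl7l1.

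**Figure D3:**
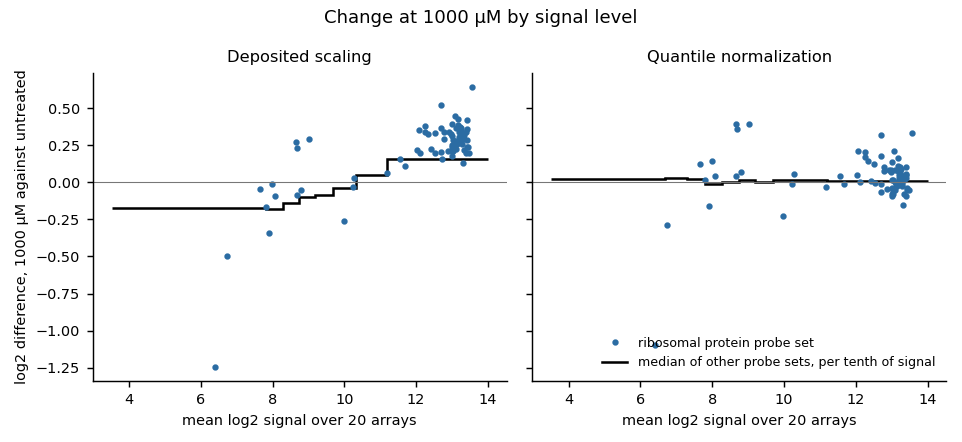
Log2 difference at 1000 µM against untreated myotubes (vertical axis) by mean log2 signal over 20 arrays (horizontal axis), as deposited (left) and after quantile normalization (right). Points are ribosomal protein probe sets and the stepped line is the median of other probe sets in each of 10 signal classes, which reached 0.156 in the brightest class as deposited and 0.00598 after quantile normalization.

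At 1000 µM, 9 of the 80 ribosomal protein probe sets were called by limma as deposited (10.9% of all tested probe sets), 8 rising and 1 falling. Over all tested probe sets 2.46% rose and 8.48% fell, a split of 354 against 1220. The 8 rising probe sets belonged to Rpl35, Rps3, Rps14, Rps28, Rpsa and Rps27l, and they were in the brightest 10 percent, where 12.5% of members and 10.2% of other probe sets rose. None of the 8 was called after quantile normalization, where 1 member rose (2.04% of all tested) and 1 fell (3.32%), of 294 and 477 probe sets. In the brightest 1 percent, 16.7% of members and 13.6% of other probe sets rose as deposited. Quantile normalization can remove a rise shared by the brightest probe sets, and whether these members rose together was not tested. With each array centred on the median of its tested probe sets, which moved the median difference of all probe sets from -0.07 to 0.05, 34 members rose and 1 fell, against 1155 (8.03%) and 588 (4.09%) of all probe sets. The count of 9 as deposited became 4 without untreated replicate 1, 5 without untreated replicate 4, 4 without 1000 µM replicate 1 and 4 without 1000 µM replicate 3. Using only replicates 2 to 4 at each dose it was 11, with 8 rising and 3 falling, and 17.6% of all probe sets were called. Without the filter on dim probe sets it was 6, with 4 rising and 2 falling (5.47% of all probe sets called), and the rises of Rps14, Rps28 and both Rpl35 probe sets were not called. With the replicate number as a block, a fit described at the end, the count was higher.

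The 4 arrays at 1000 µM lay wholly above the 4 untreated arrays for 40 of the 80 members as deposited (6.66% of all tested probe sets), all of them in the brightest 10 percent, and wholly below for 1 (13.8%). In that class the share was 62.5% of members and 30.1% of other probe sets. The members were brighter within it, with 36 of 64 in the brightest 1 percent against 66 of 1297 others. In that 1 percent the median differences were 0.31 and 0.29. After quantile normalization only 2 of 80 members lay wholly above (6.6% of all tested) and 3 wholly below (8.02%). At 1 µM the count as deposited was 10 (1.59% of all tested), at 10 µM 0 (1.4%) and at 100 µM 3 (3.79%). After quantile normalization these counts were 2 (1.46%), 1 (1.86%) and 3 (4.21%).

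Among the small subunit proteins, Rps3, which sits at the entry of the messenger RNA into the ribosome and also takes part in DNA repair, gave one of the clearer differences. Its signal on the deposited scale was 5730, 8638, 8923 and 8017 in untreated cells and 10644, 10461, 10347 and 9993 at 1000 µM. The groups did not overlap, and untreated replicate 1 stood well below the rest. At 1 µM the signals were 10756, 9767, 9299 and 9947, at 10 µM 8541, 9104, 8684 and 11309, and at 100 µM 8508, 9156, 9798 and 9233. The level at 1 µM was thus near that at 1000 µM, although only the latter passed the test. The log2 difference at 1000 µM was 0.43 ± 0.112 (SE, n = 4 per group, adjusted p = 0.0191), a fold of 1.34. Over 15 alternatives the adjusted p ran from 0.00235 to 0.211, with the call lost after quantile normalization (0.16, adjusted p = 0.211) and without untreated replicate 1 (0.28, adjusted p = 0.0519).

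Rpsa, the small subunit protein also known as the laminin receptor, read 6867, 8750, 8929 and 7982 in untreated cells and 11628, 9710, 10570 and 9829 at 1000 µM. The groups did not overlap, with the lowest and the highest of the 8 arrays both being replicate 1. The difference was 0.36 ± 0.096 (SE, n = 4, adjusted p = 0.0191) as deposited and 0.08 ± 0.05 after quantile normalization (adjusted p = 0.459). In replicates 2 to 4 alone it was 0.23 (adjusted p = 0.0601), and leaving out replicate 1 of either group also ended the call. The range over the 15 alternatives was 0.00531 to 0.459. A second Rpsa probe set stayed below the filter level on all arrays.

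Rps14, a protein of the small subunit's platform, read 6461, 8795, 9171 and 7814 in untreated cells and 10951, 10187, 10261 and 10359 at 1000 µM. Its difference was 0.39 ± 0.119 (SE, n = 4, adjusted p = 0.0416), and after quantile normalization 0.11 (adjusted p = 0.251), with adjusted p-values from 0.012 to 0.251 over 15 alternatives. The call was lost without any one of 6 of the 8 arrays, namely untreated replicates 1 and 4 and each of the 4 arrays at 1000 µM, and in replicates 2 to 4 alone (0.26, adjusted p = 0.106). Its other tested probe set gave 0.25 and did not pass.

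Rps28, one of the smallest proteins of the small subunit, was called in 1 of its 3 tested probe sets. That probe set read 7405, 9361, 9642 and 8539 in untreated cells and 11669, 10611, 11078 and 10001 at 1000 µM. The groups did not overlap, and the difference was 0.32 ± 0.0977 (SE, n = 4, adjusted p = 0.0417). After quantile normalization it was 0.04 (adjusted p = 0.711), and over 15 alternatives the adjusted p ran from 0.0181 to 0.711. Using only replicates 2 to 4, or leaving out untreated replicate 1 or 4, or 1000 µM replicate 1, 2 or 3, ended the call. The other 2 probe sets gave 0.29 and 0.28 and did not pass.

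In the large subunit, Rpl35, which lines the exit of the peptide tunnel, was called in 2 of its 5 tested probe sets. The brighter read 8197, 9745, 10355 and 8890 in untreated cells and 16448, 10900, 12071 and 10854 at 1000 µM, where replicate 1 stood far above the others. Its difference was 0.42 ± 0.124 (SE, n = 4, adjusted p = 0.0346) as deposited and 0.10 ± 0.0853 after quantile normalization (adjusted p = 0.578). The second gave 0.37 ± 0.111 (adjusted p = 0.0365) and 0.08 (adjusted p = 0.682), and the other 3 lay between 0.18 and 0.35. Over 15 alternatives the adjusted p of the brighter ran from 0.0155 to 0.578 and that of the second from 0.0133 to 0.682. Both calls were lost in replicates 2 to 4 alone (0.22 and 0.21), and without untreated replicate 1, 2 or 4 or 1000 µM replicate 1 or 3.

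**Figure D4:**
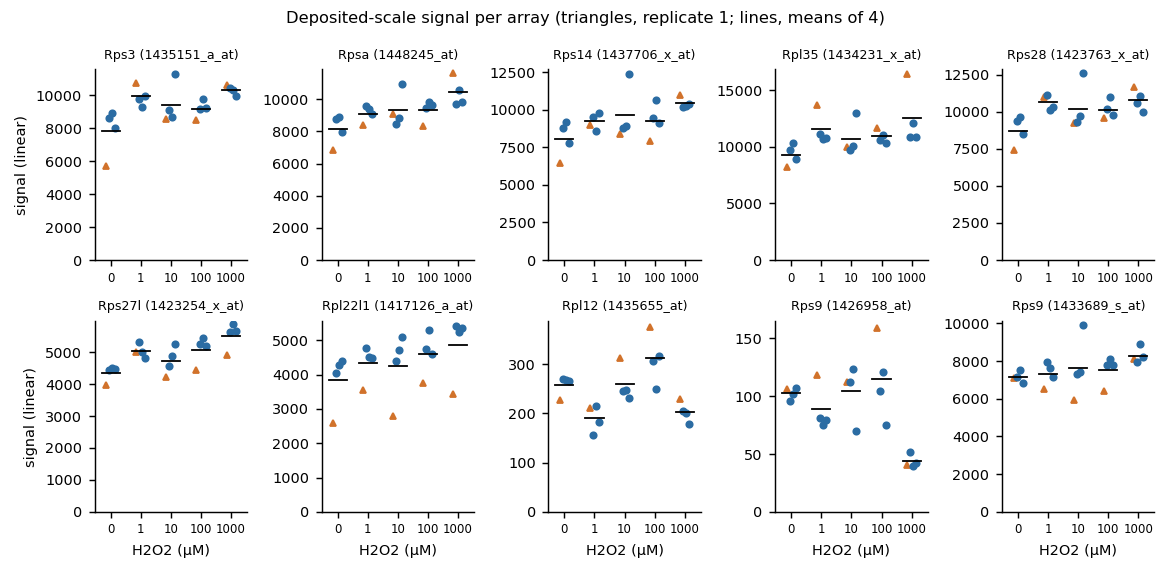
Signal per array on the deposited linear scale (vertical axes, from 0) by H2O2 dose in µM (horizontal axes) for 10 ribosomal protein probe sets. Triangles are replicate 1, circles replicates 2 to 4 and lines the means of 4 arrays, and the dim Rps9 probe set has a mean of 102.9 untreated and 43.67 at 1000 µM while the bright one has 7158 and 8290.

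The only member called at 1000 µM against untreated cells under both scalings was a dim probe set of Rps9, a small subunit protein that binds ribosomal RNA early in assembly. It read 106.3, 95.9, 102.1 and 107.1 in untreated cells, 118.3, 81.3, 75.4 and 79.6 at 1 µM, and 112.2, 112.1, 123.7 and 70.2 at 10 µM. At 100 µM it read 159, 104.3, 121.4 and 75.4, and at 1000 µM 40.8, 51.5, 40 and 42.4. All 4 arrays at 1000 µM lay below all 16 others. The probe set fell by 1.24 ± 0.233 (SE, n = 4, adjusted p = 0.00164) from untreated to 1000 µM and by 1.10 after quantile normalization (adjusted p = 0.00751). Adjusted p-values over 15 alternatives ran from 4.19e-05 to 0.00751, and all of them kept the call. The signals at 1000 µM were under the filter level, which ran from 77.7 to 106 over the arrays, and only 10 of the 20 arrays reached it, so the size of the fall is uncertain. With 50 added to every signal before the log the probe set fell by 0.71.

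The other Rps9 probe sets did not show that fall. The bright one, shared between transcripts by its name, read 7117, 7162, 7518 and 6833 in untreated cells and 8092, 7947, 8902 and 8221 at 1000 µM. Its difference was 0.21 ± 0.113 (SE, n = 4, adjusted p = 0.247), and after quantile normalization -0.04. The third gave -0.09 ± 0.311 as deposited and 0.04 after quantile normalization. The fall was therefore measured at 1 probe set and not for the gene, and which transcript that probe set detects was not tested.

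Rpl12, a large subunit protein at the base of the stalk, has 1 tested probe set, also among the dimmer ones. It read 227.7, 269.5, 268 and 266.2 in untreated cells, 210.8, 156, 214.5 and 183 at 1 µM and 312.8, 244.8, 247 and 231.9 at 10 µM. At 100 µM it read 376, 306.7, 249.5 and 317.3, and at 1000 µM 229.6, 204.7, 200.6 and 178.5. The values at 1 µM and at 1000 µM were low and those at 100 µM high, with no overlap between 100 and 1000 µM, so the order did not follow the dose.

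Against 100 µM, Rpl12 at 1000 µM fell by 0.61 ± 0.138 (SE, n = 4, adjusted p = 0.0133), and after quantile normalization its difference was -0.50 (adjusted p = 0.0852). Leaving out 100 µM replicate 1 or 1000 µM replicate 4 ended this call, and adjusted p-values over 15 alternatives ran from 9.81e-05 to 0.0852. Against untreated cells its difference was -0.34 (adjusted p = 0.116), and in replicates 2 to 4 alone it fell by 0.46 (adjusted p = 0.017), within a range of 0.00119 to 0.621 over 15 alternatives.

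Between 100 and 1000 µM, 2 members were called as deposited, Rps9 and Rpl12, both falling (3.6% of all tested probe sets), and none rose (0.744%). The Rps9 probe set fell by 1.35 ± 0.233 (adjusted p = 0.00156, from 0.000109 to 0.00695 over 15 alternatives). After quantile normalization only Rps9 was called (1.83% of all tested fell). The median over the 80 members was 0.12 as deposited and 0.02 after quantile normalization, against -0.04 and 0.01 over all tested probe sets. In the F-test across all 5 doses these same 2 probe sets were called under either scaling, where 8.01% and 5.47% of all tested probe sets were called.

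Rps6, the small subunit protein phosphorylated by the S6 kinases, was the 1 member that rose after quantile normalization and not as deposited. Its tested probe set, outside the brightest 10 percent, read 456.4, 357.2, 373.5 and 376.1 in untreated cells and 464.6, 523.8, 504.7 and 394.6 at 1000 µM, which overlap. As deposited the difference was 0.27 ± 0.113 (SE, n = 4, adjusted p = 0.13), and after quantile normalization 0.39 ± 0.113 (adjusted p = 0.0452).

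The stalk proteins recruit the elongation factors. Rplp0, their anchor on the large subunit, read 6641, 9349, 9473 and 8559 in untreated cells and 10297, 10336, 11655 and 9942 at 1000 µM, without overlap. Its difference was 0.32 ± 0.123 (SE, n = 4, adjusted p = 0.0967) and after quantile normalization 0.05 (adjusted p = 0.715). Rplp2 read 5880, 9558, 9779 and 8530 in untreated cells and 10934, 10525, 10840 and 10487 at 1000 µM. It gave 0.37 ± 0.141 (adjusted p = 0.0971) and after quantile normalization 0.10 (adjusted p = 0.5). Neither passed as deposited or after quantile normalization. Both were called after median centring and, on the deposited scale, with array weights and with the replicate number as a block. For both the groups did not overlap as deposited. Adjusted p-values ran from 0.0416 to 0.715 for Rplp0 and from 0.0302 to 0.5 for Rplp2 over 15 alternatives each.

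The highest difference among the 44 genes was at Rpl41, which encodes a very small basic protein of the large subunit. Its brightest probe set read 4844, 12067, 11955 and 10437 in untreated cells and 20426, 12046, 13938 and 12561 at 1000 µM. Untreated replicate 1 was far below and 1000 µM replicate 1 far above the rest. The difference of 0.64 ± 0.244 (SE, n = 4) did not pass (adjusted p = 0.0971), was 0.33 after quantile normalization and was 0.16 in replicates 2 to 4 alone. The adjusted p ran from 0.052 to 0.373 over 15 alternatives. A dim Rpl41 probe set gave -0.50 ± 0.232 and, after quantile normalization, -0.29, also without passing. Rpl22, whose protein sits on the outside of the large subunit, gave 0.38 ± 0.196 and after quantile normalization 0.20, and likewise did not pass.

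The 5 lowest differences among the 44 genes were at Rpl12 and at Rpl7l1, both described separately, and at Rpl39, Rpl27a and Rps27, each with a single tested probe set outside the brightest 10 percent. Rpl39 gave -0.08 ± 0.223, Rpl27a -0.04 ± 0.441 and Rps27 -0.01 ± 0.381, each with a standard error well above the difference. After quantile normalization these were 0.04, 0.12 and 0.15, with the sign turned. Their untreated signals scattered widely, for Rpl27a 387.1, 210.4, 169.8 and 186.9 and for Rps27 501.7, 302.2, 174.5 and 138.3, with replicate 1 highest in both. Leaving out replicate 1 of one group or the other moved Rps27 between -0.33 and 0.33.

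**Figure D5:**
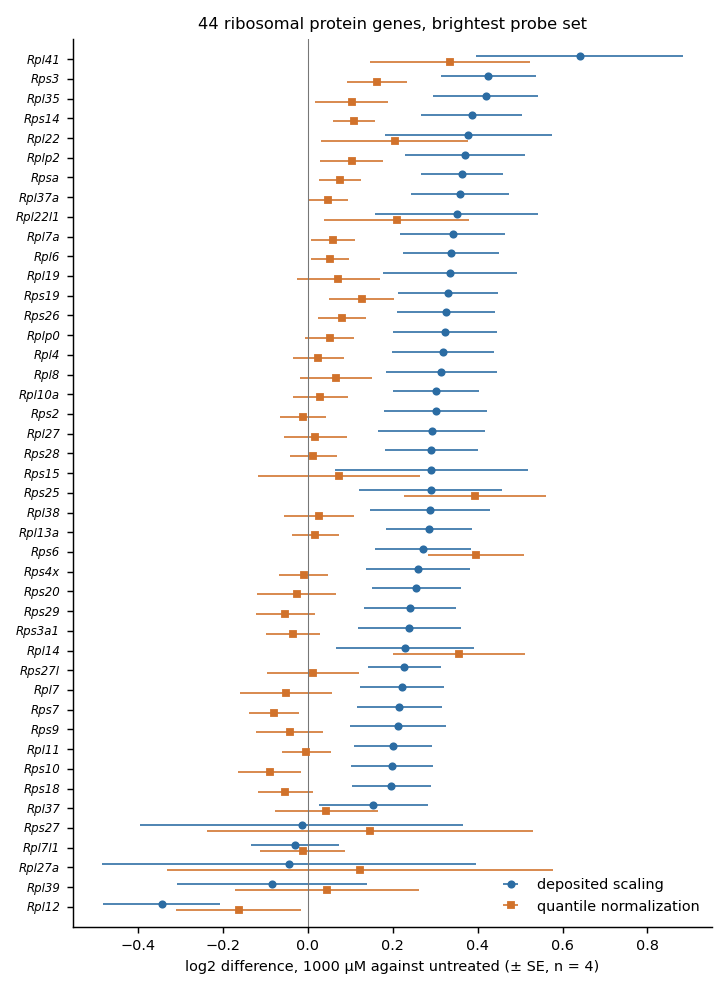
Log2 difference at 1000 µM against untreated myotubes (horizontal axis, ± SE, n = 4 arrays per group) for the brightest tested probe set of each of 44 ribosomal protein genes (vertical axis), as deposited (circles) and after quantile normalization (squares). As deposited 39 of the 44 lie above 0 with a median of 0.29, and after quantile normalization 31 do, with a median of 0.0457.

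The paralogues are genes related to ribosomal protein genes, some with more restricted or inducible expression. Rps27l, a paralogue of Rps27 known as a transcriptional target of p53, had a probe set whose rise kept its call under 14 of 15 alternatives. One of its probe sets read 3968, 4454, 4507 and 4486 in untreated cells, 5016, 5313, 5017 and 4800 at 1 µM and 4228, 4577, 4873 and 5241 at 10 µM. At 100 µM it read 4433, 5255, 5445 and 5192, and at 1000 µM 4908, 5621, 5873 and 5661. The arrays at 1 µM and at 1000 µM lay wholly above the untreated ones, and those at 10 and 100 µM overlapped them.

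That Rps27l probe set rose at 1000 µM by 0.34 ± 0.0825 (SE, n = 4, adjusted p = 0.0114), a fold of 1.27. After quantile normalization it gave 0.17 ± 0.0577 (adjusted p = 0.0919), the only one of the 15 alternatives without the call. Over all 15 the adjusted p ran from 1.84e-05 to 0.0919. The separate rule of a mean ratio over 1.75 is not among the 15, and this fold lies under it. A second Rps27l probe set rose by 0.33 ± 0.0865 (adjusted p = 0.0193) and gave 0.14 after quantile normalization, with the adjusted p running from 0.000106 to 0.264. The second lost the call without untreated replicate 2 or 1000 µM replicate 3 or 4. The third and brightest gave 0.23 ± 0.0857 (adjusted p = 0.0938) and 0.01 after quantile normalization, within a range of 0.00199 to 0.972. It was called in 5 of the 15 alternatives, among them the fit with the replicate number as a block. At 1 and 100 µM none of the 3 was called.

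Rpl22l1, a paralogue of Rpl22, read 2582, 4061, 4291 and 4406 in untreated cells and 3437, 5418, 5256 and 5362 at 1000 µM. Replicate 1 was the lowest array of its group at every dose. The difference of 0.35 ± 0.192 (SE, n = 4) did not pass over all 4 replicates (adjusted p = 0.256). In replicates 2 to 4 alone it was 0.33 ± 0.0668 and was called (adjusted p = 0.00279). It was also called with array weights (0.33, adjusted p = 0.0113) and with the replicate number as a block, fits that kept replicate 1 of both groups. Over 15 alternatives the adjusted p ran from 0.00279 to 0.619. After quantile normalization the difference was 0.21 (adjusted p = 0.572). Rpl7l1, a paralogue of Rpl7, gave -0.03 and -0.26 in its 2 probe sets as deposited and -0.01 and -0.23 after quantile normalization, none called. The skeletal muscle paralogue Rpl3l, Rpl39l, Rps4l and the pseudogene Rps15a-ps6 stayed below the filter level on every array, with highest signals of 30.1, 24, 8.9 and 77.5.

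Among all members, 18 genes had several tested probe sets, and at 1000 µM these gave the same sign for 15 genes as deposited. The difference between the highest and lowest probe set of a gene had a median of 0.176 as deposited and 0.136 after quantile normalization. It was over 0.5 for Rpl37a, Rpl41 and Rps9, each with at least 1 dim probe set. Of the 80 probe sets, 34 (42.5%) have names ending in _x_at, which marks probes that can also match other transcripts, against 7.58% of all tested probe sets. Ribosomal protein genes have many processed pseudogenes, so these signals may not come from the named gene alone. The median at 1000 µM was 0.26 in the _x_at class, 0.31 in the 27 probe sets named _a_at and 0.23 in the 17 named _at as deposited, and 0.02, 0.03 and 0.07 after quantile normalization. By subunit, the medians as deposited were 0.23 for the 37 large subunit and 0.28 for the 35 small subunit probe sets, and after quantile normalization 0.03 and 0.01.

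Other genes of translation gave a related picture where they were bright. Of 19 tested genes of the TOP class or of elongation, all lay above 0 at 1000 µM as deposited, with a median of 0.24, and 14 did after quantile normalization, with a median of 0.03. Eef1d, which recharges elongation factor Eef1a1 with GTP, rose as deposited (0.28 ± 0.0662, adjusted p = 0.01) and gave 0.17 after quantile normalization (adjusted p = 0.16). It was the only one of the 19 called as deposited, where 2.46% of all tested probe sets rose, and none of the 19 was called after quantile normalization. Eef1a1 gave 0.34 as deposited and 0.01 after quantile normalization, and Tpt1 0.30 and 0.0019, without a call.

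The 33 tested initiation factors and their kinases had a median of 0.13 as deposited and 0.03 after quantile normalization. As deposited 2 rose and 4 fell, where 2.46% of all tested probe sets rose and 8.48% fell. None was called after quantile normalization, where 2.04% rose and 3.32% fell. Eif1ax and Eif2s2, which take part in start site selection, rose by 0.29 each. The stress kinases Eif2ak3 (PERK) and Eif2ak4 (GCN2), which phosphorylate initiation factor eIF2, fell by 0.50 and 0.88, Eif4ebp2 by 0.27 and Eif4g3 by 0.34. The mean log2 signals of the rising probe sets were 11.66 and 12.58 and those of the falling ones 6.26 to 9.56.

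Of 22 tested genes that regulate ribosomal protein synthesis or respond to its disturbance, 3 rose and 3 fell at 1000 µM as deposited (2.46% and 8.48% of all tested probe sets). After quantile normalization 2 rose and 1 fell (2.04% and 3.32%). The medians of the 22 genes were -0.05 and 0.02. Myc, a transcription factor that drives ribosome production, rose by 0.88 at 100 µM (adjusted p = 0.000244) and by 1.37 ± 0.123 at 1000 µM (SE, n = 4, adjusted p = 4.3e-07). After quantile normalization its difference at 1000 µM was 1.45 (adjusted p = 3.51e-07). Mdm2, the p53 ligase that free ribosomal proteins such as Rpl11 can bind, rose by 1.33 at 100 µM and 1.01 at 1000 µM, and by 0.97 at 1000 µM after quantile normalization (adjusted p = 0.000113). Larp1, the TOP-binding protein, fell by 0.49 ± 0.127 (SE, n = 4, adjusted p = 0.0179) and by 0.46 after quantile normalization (adjusted p = 0.0433). The nucleic acid-binding protein Cnbp rose by 0.37 and Tsc1 and Tbp fell by 0.41 and 0.43 as deposited only. Rpl11 itself gave 0.20 ± 0.0922 as deposited and -0.0036 after quantile normalization, without a call.

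The mitochondrial ribosomal proteins, the counterparts in the mitochondrial ribosome, had a higher median after quantile normalization, as had all tested probe sets. Over 74 tested genes the median at 1000 µM was 0.08 as deposited, with 58 above 0, and 0.14 after quantile normalization, with 66 above 0. Mrps6 rose under both scalings (0.29 and 0.37, adjusted p = 0.0316 and 0.00811), and Mrps25 rose after quantile normalization (0.47, adjusted p = 0.0369). Over all tested probe sets 2.46% rose as deposited and 2.04% after quantile normalization. The cytosolic members had medians of 0.27 and 0.03 in the same comparison, and all tested probe sets medians of -0.07 and 0.01.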

How the data were processed

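Total RNA of C2C12 myotubes (5 doses, 4 arrays each, 20 in all) was measured on 1-colour Affymetrix arrays. The deposited values are linear intensities, made by the authors with MAS5 per the submitters' processing notes, without a log transform, version or build given in the sources used here. Although 2 dyes stand in the labels, each array gives 1 value per probe set and was read as 1 channel. From the values, each array's mean after trimming 2% at each end was 500.1 to 500.2. Signals were floored at 1 and log2 transformed here. Testing was limited to the 14379 probe sets that reached the 40th percentile of an array's signals on 4 or more of the 20 arrays, a filter a probe set bright at 1 dose only can pass.

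All 5 groups entered 1 fit in limma 3.58.1 (R 4.3.3; lmFit and trended eBayes, with residual df of 15 and prior df of 5.33). P-values were adjusted by Benjamini-Hochberg over all tested probe sets of each comparison, and adjusted p under 0.05 counted as called. The deposited scaling was the main one and quantile normalization the second. Alternatives were median centring, no filter, a replicate block, replicates 2 to 4 only, array weights, log2 of signal + 50, leaving out each array, and a rule requiring all 16 pairs of arrays to differ in 1 direction with a mean ratio over 1.75. The 15 alternatives given for a single probe set include quantile normalization and leave out that last rule.

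The members and gene lists were chosen with earlier results of these data known, so lists are described without a test. A gene is represented by its tested probe set of highest mean log2 signal, and named genes were those with a representative called in any comparison, the 5 highest and 5 lowest at 1000 µM, the stalk proteins and Rpsa, and the paralogues. Rps6, Rpl11 and the other probe sets of a gene were named after their values were seen. One gene of the naming pattern is not reported here. Precision is limited by the 4 arrays per dose. Symbols come from the platform annotation, promoter windows from RefSeq.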

Additional observations from a re-analysis of the deposited data

Results flagged for a closer look

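In 110 groups of 4 arrays (the named probe sets and the members' per-array median, at each dose), 1 array stood apart from the other 3 in 16, judged by its gap to the nearest value over the range of the group against Dixon's critical value for 4 samples. Chance gives about 1 in 20 such groups, but these groups share the same arrays and some share a gene. The count is therefore not one of independent groups.

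In untreated cells replicate 1 was low for Rpl12 (gap ratio 0.927), Rpl41 (0.841), Rpl22l1 (0.847) and 1 Rps27l probe set (0.907). At 1 µM replicate 1 was high for the dim Rps9 probe set (0.833), and replicate 2 was high for a second Rps27l probe set (0.881). At 10 µM replicate 4 was high for the members' median deviation as deposited (0.852), for Rpl35 (0.862), Rps14 (0.842), Rpl41 (0.876), Rplp0 (0.891) and Rps28 (0.845), while replicate 1 was high for Rpl39 (0.846). At 1000 µM replicate 1 stood apart for the members' median deviation after quantile normalization (high, 0.983), for Rpl22l1 (low, 0.933) and for the second Rpl35 probe set (high, 0.841). The cause of these deviations was not tested.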

How the results depend on the processing

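The direction of the members' median did not depend on leaving out an array, but its size and the calls depended on the scaling. After quantile normalization the median was -0.00471 at 1 µM, 0.0215 at 100 µM, 0.0304 at 1000 µM and 0.0211 for 1000 against 100 µM, and after median centring it was 0.399 at 1000 µM. The count of members called at 1000 µM (9 as deposited) was 2 after quantile normalization, 35 after median centring, 35 with array weights and 1 under the rule of non-overlapping arrays with a mean ratio over 1.75, when 5.36%, 12.1%, 29.7% and 1.84% of all tested probe sets were called. Called at 100 µM (0 as deposited) were 1 in replicates 2 to 4 alone (2.49% of all) and 3 with array weights (6.14%). For 1000 against 100 µM (2) the counts were 1 after quantile normalization (2.56%), 9 with array weights (18.5%) and 1 under the ratio rule (1.21%). In the F-test (2) they were 4 after median centring (6.92%), 12 in replicates 2 to 4 alone (20.3%) and 17 with array weights (33.2%). The cause of these changes was not tested. Leaving out 1 array gave 4 to 12 called at 1000 µM, 1 to 2 for 1000 against 100 µM and 2 to 4 in the F-test, and medians of 0.117 to 0.202 at 1 µM, 0.0498 to 0.188 at 10 µM, 0.0933 to 0.201 at 100 µM, 0.214 to 0.313 at 1000 µM and 0.0821 to 0.163 for 1000 against 100 µM. Of 182 alternative values of counts and medians 156 stayed within 1.5 times the main count or within 1 SD between replicates of the main median, and of 330 values of single probe sets 47 lost and 16 gained a call, with no called value changing sign.

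Replicate numbers shared between doses were checked for pairing. Of 36 pairs of same-numbered arrays, 33 had deviations from their group means that correlated above 0.1, with the lowest at 0.00993 and the highest at 0.514. Replicate 1 arrays correlated with each other at 0.462 to 0.514 and with arrays of other numbers at -0.388 to -0.122, whereas among numbers 2 to 4 the median was 0.14 for same and 0.18 for different numbers. Numbers 2 to 4 were therefore not taken to pair the arrays, whereas replicate 1 arrays stood apart as a set. The main fit has no term for this, so the spread between replicate 1 and the others enters its standard errors. With the replicate number as a block, without the unnumbered array, 30 members were called at 1000 µM (19.8% of all tested), 29 of them rising and with Rplp0, Rplp2, Rpl22l1 and the third Rps27l probe set among those gained, and 9 in the F-test (15.8%). Depth does not apply to arrays, where the number of arrays and, for dim probe sets, the signal near the filter level limit the precision.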
